A study of Homo sapiens with 2 samples.

Results

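The insulin receptor, PI3K and FOXO axis was followed through 9 genes: the receptors INSR and IGF1R, the adaptors IRS1 and IRS2, the PI3K subunits PIK3CA and PIK3R1, the kinase AKT1 and the transcription factors FOXO1 and FOXO3. The genes were chosen by name, with earlier results of these data known, so the counts of lower genes below are descriptive. They account for 39 of the 95139 transcripts and 9 of the 20263 genes in the deposited table. The data are RNA-seq values of the established human embryonic stem cell line H9, treated for 48 h. Cells of one library received small interfering RNA against HNRNPA1 (siHNRNPA1), which encodes the splicing regulator hnRNP A1, and cells of the other a control small interfering RNA (sicontrol). Each condition had 1 library, so no difference below has a replicate check and no test was applied.

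In this pathway insulin or insulin-like growth factors activate a receptor tyrosine kinase, which phosphorylates IRS adaptors. The adaptors recruit PI3K, whose lipid product brings AKT to the membrane, and AKT phosphorylates FOXO factors so that they leave the nucleus. Insulin and insulin-like growth factors are known to sustain self-renewal of human embryonic stem cells. INSR itself is made in a form that holds exon 11 (INSR-B) and a form that lacks it (INSR-A), which binds IGF2 with high affinity and prevails in fetal and undifferentiated cells. In minigene work on this exon by others, hnRNP A1 favoured its skipping.

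Total estimated counts were 28147828 with siHNRNPA1 and 26680342 with sicontrol. HNRNPA1 stood at 179.9 FPKM (fragments per kilobase of transcript, scaled to library size) with siHNRNPA1 and 663 FPKM with sicontrol, or 27.1% of the control level. All 10 listed pluripotent cell markers were measured, with a summed level of 2438 FPKM with siHNRNPA1 and 2457 FPKM with sicontrol. The near-equal sum rests on POU5F1 (1355 FPKM with siHNRNPA1 and 864 FPKM with sicontrol). Without it the sums were 1083 FPKM with siHNRNPA1 and 1593 FPKM with sicontrol. Of the 10 markers 3, SOX2, PODXL and DPPA4, were lower by 2-fold or more, against 21.9% of all genes tested. The 6 listed neural ectoderm markers summed to 212 FPKM with siHNRNPA1 and 76.6 FPKM with sicontrol, nearly all from NES and TUBB3, while PAX6 and NEUROD1 were below 0.1 FPKM in both. Summed levels of the fibroblast markers were 214.9 FPKM with siHNRNPA1 and 261 FPKM with sicontrol, with COL3A1, DCN and LUM below 0.1 FPKM in both. The mesoderm markers summed to 10.7 FPKM with siHNRNPA1 and 35.5 FPKM with sicontrol, with HAND1 near 0 in both. Most of that difference was KDR, and without it the sums were 2.70 FPKM with siHNRNPA1 and 3.48 FPKM with sicontrol. The definitive endoderm markers (SOX17 and GATA6 near 0) summed to 5.89 FPKM with siHNRNPA1 and 2.82 FPKM with sicontrol. Those of trophoblast and amnion (CGA and ISL1 near 0) summed to 5.92 FPKM with siHNRNPA1 and 7.86 FPKM with sicontrol. Without GABRP the trophoblast and amnion sums went the other way, at 4.43 FPKM with siHNRNPA1 and 1.77 FPKM with sicontrol. The part of these markers in the results below was not tested.

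The sequences shown first mark the places where transcripts of INSR, IGF1R and AKT1 differ, because the transcript results turn on them. They are the reference sequence of GENCODE release 29 on GRCh38. INSR lies on the minus strand of chromosome 19, and its exon 11 (36 bases, chr19:7150497-7150532) is present in transcript INSR-201 and absent from INSR-202. Capitals mark exon 11, with the end of exon 10 before it and the start of exon 12 after it.
INSR-201: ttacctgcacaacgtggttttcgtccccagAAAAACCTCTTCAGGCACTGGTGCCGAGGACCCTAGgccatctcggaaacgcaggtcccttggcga
INSR-202: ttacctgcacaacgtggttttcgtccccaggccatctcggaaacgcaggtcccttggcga

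IGF1R lies on the plus strand of chromosome 15. Its exon 14 begins at chr15:98929558 in IGF1R-201 and 3 bases further on, at chr15:98929561, in IGF1R-206, a pair of neighbouring splice acceptors. Capitals mark the bases that only the longer form holds.
IGF1R-201: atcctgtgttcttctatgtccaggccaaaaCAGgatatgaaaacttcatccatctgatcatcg
IGF1R-206: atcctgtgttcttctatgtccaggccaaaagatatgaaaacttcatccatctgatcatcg

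AKT1 lies on the minus strand of chromosome 14. Its main transcripts share a leader exon (chr14:104792598-104792722), whose first 15 bases are in capitals, and differ in the leader that precedes it. AKT1-203 joins it to a first exon at chr14:104795484-104795679 and AKT1-202 to one at chr14:104793127-104794528. AKT1-208 begins at chr14:104794124 and runs on without a splice into the shared exon.
AKT1-203: ggacgcggcggcccgAGGCTGTGGCCAGGC
AKT1-202: cagctggtgcatcagAGGCTGTGGCCAGGC
AKT1-208: ctttgcttctcccagAGGCTGTGGCCAGGC

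All 9 genes were lower with siHNRNPA1, each by at least 2-fold. IGF1R had the lowest fold, and AKT1, the most abundant of the 9, was at the threshold. Gene levels are FPKM summed over transcripts, and folds are log2((siHNRNPA1 + 1)/(sicontrol + 1)) of FPKM, which understates the fold of low genes. Over the 11921 genes with a mean level of at least 1 FPKM, 21.9% were lower by this measure by 2-fold or more and 12.4% higher. The median fold was -1.35 over the 9 genes and -0.13 over all genes tested. PIK3CA and PIK3R1 passed the minimum only through the sicontrol library. The other 7 genes had at least 1 FPKM in both libraries, and 18.5% of all genes with that level in both were at least 2-fold lower. In bulk RNA, fewer cells that express a gene and less of its RNA per cell cannot be told apart.

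**Figure D1:**
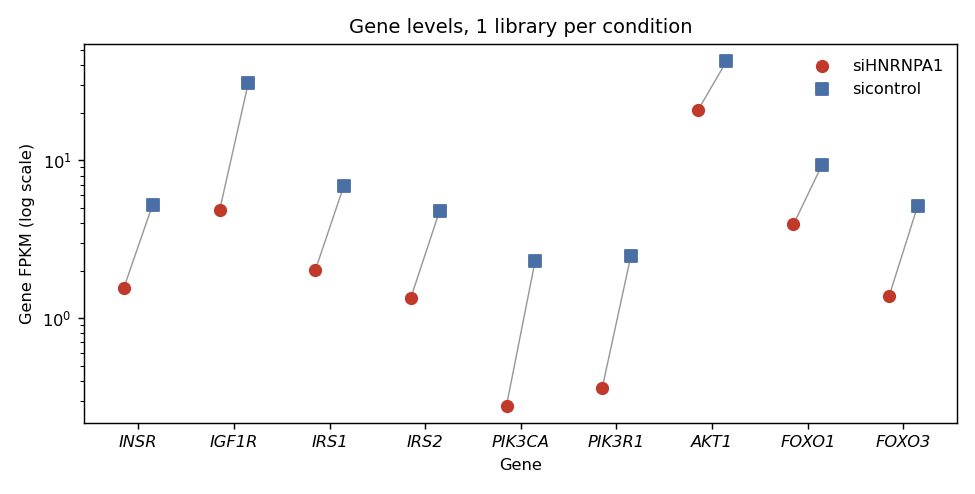
Gene FPKM (log axis) of the 9 genes with siHNRNPA1 (circles) and with sicontrol (squares), 1 library per condition. Every circle lies below its square, and the gap is widest for PIK3CA, PIK3R1 and IGF1R, which held 12.1%, 14.5% and 15.6% of the sicontrol level.

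Among the receptors, INSR (chr19:7112255-7294034) had 1.56 FPKM with siHNRNPA1 and 5.23 FPKM with sicontrol, a log2 fold of -1.28. Its estimated counts were 465 with siHNRNPA1 (95% counting interval 424 to 509) and 1307 with sicontrol (1237 to 1380). IGF1R (chr15:98648539-98964530), the receptor of insulin-like growth factors, had 4.81 FPKM with siHNRNPA1 and 30.8 FPKM with sicontrol, a log2 fold of -2.45. By summed FPKM, only 0.948% of the genes tested had a lower fold than IGF1R. Its estimated counts, 1850 with siHNRNPA1 and 6399 with sicontrol, differed relatively less than its FPKM. As a share of all counts the log2 ratio was -1.87 (95% counting interval -1.94 to -1.79), against -1.57 (-1.72 to -1.41) for INSR.

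INSR was found almost wholly as the form without exon 11 in both libraries. Of the transcripts that span exons 10 to 12, INSR-201, with exon 11, was listed at 0 with siHNRNPA1 and had 0.383 FPKM with sicontrol. INSR-202, without it, had 1.56 FPKM with siHNRNPA1 and 4.46 FPKM with sicontrol. Inclusion was thus 0% of FPKM with siHNRNPA1 and 7.90% with sicontrol. By estimated counts it was 0 of 465 with siHNRNPA1 (Clopper-Pearson 95% interval 0 to 0.790%) and 57 of 1299 with sicontrol, or 4.39% (3.34 to 5.65). INSR-201 and INSR-202 also differ outside exon 11, since their annotated last exons are 784 and 5156 bases long, so reads of the 3′ end weigh in how the counts were divided. A short further transcript, INSR-206, ends before exon 10. It was listed at 0 with siHNRNPA1 and had 8 counts with sicontrol.

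The IGF1R transcripts differed in make-up between the libraries. IGF1R-206, which uses the downstream acceptor of exon 14 and encodes 1366 amino acids, had 4.30 FPKM with siHNRNPA1 and 12.2 FPKM with sicontrol. IGF1R-201, which uses the upstream acceptor and encodes 1367, had 0.430 FPKM with siHNRNPA1 and 4.602 FPKM with sicontrol. The form with the 3 additional bases therefore made up 9.10% of both with siHNRNPA1 and 27.3% with sicontrol. By estimated counts the shares were 170 of 1848 with siHNRNPA1 (9.20%, 95% interval 7.92 to 10.6) and 1688 of 6151 with sicontrol (27.4%, 26.3 to 28.6). The transcripts have 11803 and 11726 bases, so count and FPKM shares must be nearly equal, and their likeness is no check. Reads of the bases they share cannot tell them apart. The intervals do not cover how such reads were divided, so they understate the uncertainty. The annotated 3′ ends of these transcripts differ by 1 base. Their starts differ more, at chr15:98648971 for IGF1R-201 and chr15:98649044 for IGF1R-206. Reads of the 5′ end may thus weigh in how the counts were divided. A further transcript, IGF1R-204, covers 572 bases of exons 2 and 3 and has no annotated end of its reading frame. It had 2 counts with siHNRNPA1 and 243 with sicontrol. Because it is short, those counts stood for 0.0834 FPKM with siHNRNPA1 and 13.7 FPKM with sicontrol, or 44.4% of the gene's FPKM there. With transcripts shorter than 1000 bases left out, the log2 fold of IGF1R was -1.64.

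Both adaptor genes are listed with 1 transcript each and stood close to each other in fold. IRS1 (chr2:226731317-226799759) had 2.004 FPKM with siHNRNPA1 and 6.91 FPKM with sicontrol, from 649 estimated counts with siHNRNPA1 and 2088 with sicontrol (log2 fold -1.40). IRS2 (chr13:109752698-109786568) had 1.35 FPKM with siHNRNPA1 and 4.77 FPKM with sicontrol, from 365 estimated counts with siHNRNPA1 and 1209 with sicontrol (log2 fold -1.30). The siHNRNPA1 library thus held 28.996% of the sicontrol level for IRS1 and 28.2% for IRS2. The counting intervals of their count ratios overlapped, at -1.89 to -1.64 on the log2 scale for IRS1 and -1.98 to -1.64 for IRS2.

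The PI3K subunits were the least abundant of the 9 genes in both libraries. PIK3CA (chr3:179148114-179240093), which encodes the catalytic subunit p110 alpha, had 0.279 FPKM with siHNRNPA1 and 2.31 FPKM with sicontrol. Its estimated counts were 85 with siHNRNPA1 (67.9 to 105.1) and 527 with sicontrol (483 to 574). PIK3R1 (chr5:68215720-68301821), which encodes the regulatory subunit p85 alpha and its shorter forms, had 0.359 FPKM with siHNRNPA1 and 2.47 FPKM with sicontrol. Its estimated counts were 84 with siHNRNPA1 (67.0 to 104) and 433 with sicontrol (393 to 476). The log2 folds of -1.37 for PIK3CA and -1.35 for PIK3R1 were held down by the pseudocount of 1 FPKM. Their log2 count ratios were the lowest of the 9 genes, at -2.71 (-3.06 to -2.38) for PIK3CA and -2.44 (-2.80 to -2.10) for PIK3R1. PIK3CA overlaps KCNMB3 on the opposite strand, and no source used here says that counting used strand. The other overlapping genes of the 9 are noncoding and were not analysed here.

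In the siHNRNPA1 library both PI3K genes were listed with a single transcript above 0. For PIK3R1 this was PIK3R1-211, which encodes p85 alpha (724 amino acids), with 0.359 FPKM with siHNRNPA1 and 1.72 FPKM with sicontrol. PIK3R1-201, which starts downstream and encodes the 424 amino acids of p50 alpha, was listed at 0 with siHNRNPA1 and had 0.667 FPKM, from 55 counts, with sicontrol. PIK3R1-202, the p55 alpha form of 454 amino acids, was listed at 0 in both. The p50 alpha transcript held 0 of 84 counts of these forms with siHNRNPA1 (Clopper-Pearson interval 0 to 4.30%). With sicontrol it held 55 of 431 (12.8%, 9.76 to 16.3). For PIK3CA, PIK3CA-201 had 0.279 FPKM with siHNRNPA1 and 1.85 FPKM with sicontrol. The 245-base PIK3CA-204 took 19.99% of the gene's FPKM with sicontrol from 4 counts, and was listed at 0 with siHNRNPA1.

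AKT1 (chr14:104769349-104795751), the kinase that PI3K activates, had 20.7 FPKM with siHNRNPA1 and 42.4 FPKM with sicontrol. Its log2 fold of -1.003 was just past 2-fold, and its log2 count ratio was -0.997 (95% counting interval -1.08 to -0.91). The lower level lay mainly in transcripts that use the upstream first exon. AKT1-203, the leading one, had 4.88 FPKM with siHNRNPA1 and 29.4 FPKM with sicontrol. AKT1-202 and AKT1-208, which start downstream, were higher with siHNRNPA1. AKT1-202 had 4.42 FPKM (574 counts) with siHNRNPA1 and 1.17 FPKM (143 counts) with sicontrol. AKT1-208, whose leader retains an intron, had 3.63 FPKM (473 counts) with siHNRNPA1 and 0.590 FPKM (72 counts) with sicontrol. AKT1-214, a further downstream form, was lower, at 0.490 FPKM with siHNRNPA1 and 4.01 FPKM with sicontrol.

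Grouped by first exon, the 3 upstream transcripts of AKT1 summed to 7.25 FPKM with siHNRNPA1 and 32.2 FPKM with sicontrol. The 4 downstream transcripts that reach the start codon summed to 9.82 FPKM with siHNRNPA1 and 7.91 FPKM with sicontrol. The upstream share was 42.5% with siHNRNPA1 and 80.3% with sicontrol. By estimated counts it was 524 of 1689 with siHNRNPA1 (31.0%, 28.8 to 33.3) and 2608 of 3311 with sicontrol (78.8%, 77.3 to 80.1). Of the 10 AKT1 transcripts, 6 carry the same coding sequence of 480 amino acids, among them AKT1-203, AKT1-202, AKT1-208 and AKT1-214, so these forms differ outside the coding sequence, mainly in their leaders. A share difference of at least 20 points was counted for genes with several transcripts (at least 2) and a gene level of 5 FPKM or more in each library, a minimum met by AKT1 alone of the 9. The share of AKT1-203, 23.6% with siHNRNPA1 and 69.3% with sicontrol, passed it, as did at least 1 transcript of 40.6% of all such genes. With a minimum of 1 FPKM in both libraries, 4 of the 9 were eligible and IGF1R and AKT1 passed, against 45.3% of all such genes. A difference of that size was thus common in these libraries.

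**Figure D2:**
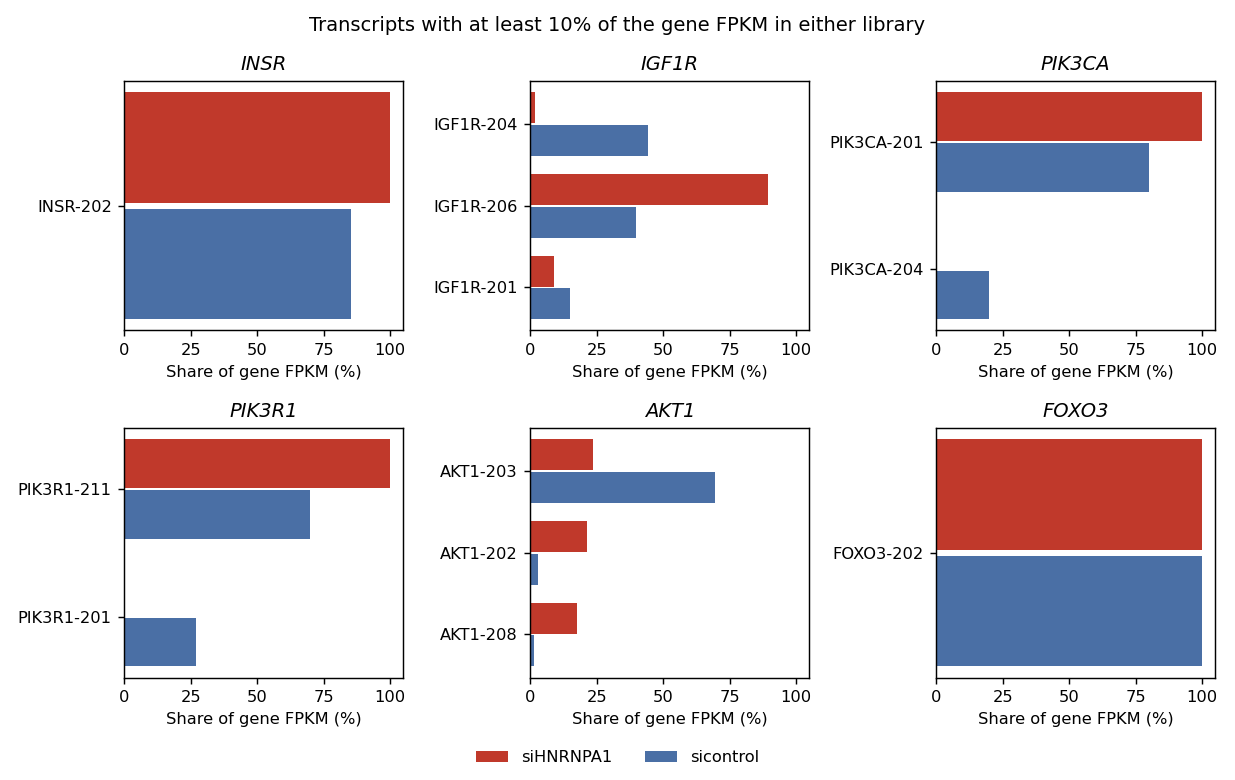
Percentage of the gene's FPKM held by each transcript with at least 10% in either library, for the 6 genes with more than 1 listed transcript (siHNRNPA1 above sicontrol). IGF1R-204 and AKT1-203 hold less with siHNRNPA1, IGF1R-206, AKT1-202 and AKT1-208 more, and INSR-202, PIK3CA-201 and PIK3R1-211 hold 100% there.

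The FOXO factors, which AKT keeps out of the nucleus, were also lower. FOXO1 (chr13:40469953-40666597), with 1 listed transcript, had 3.92 FPKM with siHNRNPA1 and 9.36 FPKM with sicontrol, from 750 estimated counts with siHNRNPA1 and 1670 with sicontrol (log2 fold -1.07). FOXO3 (chr6:108559835-108684774) had 1.37 FPKM with siHNRNPA1 and 5.16 FPKM with sicontrol, from 337 estimated counts with siHNRNPA1 and 1180 with sicontrol (log2 fold -1.38). FOXO3-202 held all of its FPKM with siHNRNPA1 and 99.9% with sicontrol. The log2 count ratio was -1.23 (-1.36 to -1.11) for FOXO1 and -1.89 (-2.06 to -1.71) for FOXO3, and these counting intervals do not overlap. Both genes have pseudogene copies, FOXO1B and FOXO3B, that were not analysed here, and reads from near-identical copies cannot be assigned with certainty.

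Of the 39 transcripts of the 9 genes, 20 had a count above 0 with siHNRNPA1 and 27 with sicontrol. The 7 listed at 0 only with siHNRNPA1 had 2 to 57 counts with sicontrol, and none was listed at 0 only with sicontrol. They made up 25.9% of the transcripts that had counts with sicontrol. Over the whole table that share was 21.0%, and 7100 transcripts had counts with siHNRNPA1 alone. An exact 0 may come from how shared reads were divided between transcripts.

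All of the 9 genes but AKT1 have long transcripts with long 3′ untranslated regions, which the choice of genes did not use. The leading transcripts of these 8 were in the longest of 5 equal groups of the genes tested, with at least 4959 bases. AKT1-203 with 2710 bases was near the overall median of 2790. The 3′ untranslated regions of the 9 were from 995 bases in AKT1-203 to 7090 bases in IGF1R-206. All were above the median of 949, that of AKT1-203 only just. Across all genes tested, folds went with these properties. By Spearman's rho, length of the leading transcript gave -0.46 and its GC content 0.58 over 11916 genes of the same 2 libraries, which are not independent replicates. Of that longest group 43.8% were at least 2-fold lower and 6.54% of the shortest. By GC content the share was 48.7% in the lowest group, which holds PIK3CA (34.8%) and PIK3R1 (40.3%), and 33.9% in the next, which holds FOXO1. It was 17.8% in the middle group, which holds INSR, IGF1R, IRS1 and FOXO3, 6.92% in the one above, which holds IRS2, and 2.01% in the highest, which holds AKT1 (60.6%).

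Set against the 100 genes nearest in mean level, GC content and length, 3 of the 9 genes were at least 2-fold lower and FOXO1 was close to its nearest genes. The median fold of the nearest genes was subtracted from each gene's own, after which 8.38% of all genes were still lower by 2-fold or more and 8.14% higher. IGF1R stood at -1.65, AKT1 at -1.55 and IRS2 at -1.04, all still at least 2-fold lower. The IGF1R value starts from the fold of -2.45, which was -1.64 with transcripts shorter than 1000 bases left out. The subtraction was not repeated on that fold, and the genes near IGF1R had a median fold of -0.80. The genes near AKT1 had a median fold of 0.55, the only positive one among the 9. IRS1 stood at -0.62, FOXO3 at -0.57, PIK3R1 at -0.50, INSR at -0.48 and PIK3CA at -0.34, all within 2-fold. FOXO1 stood at -0.12. All 9 values were below 0, with a median of -0.57.

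**Figure D3:**
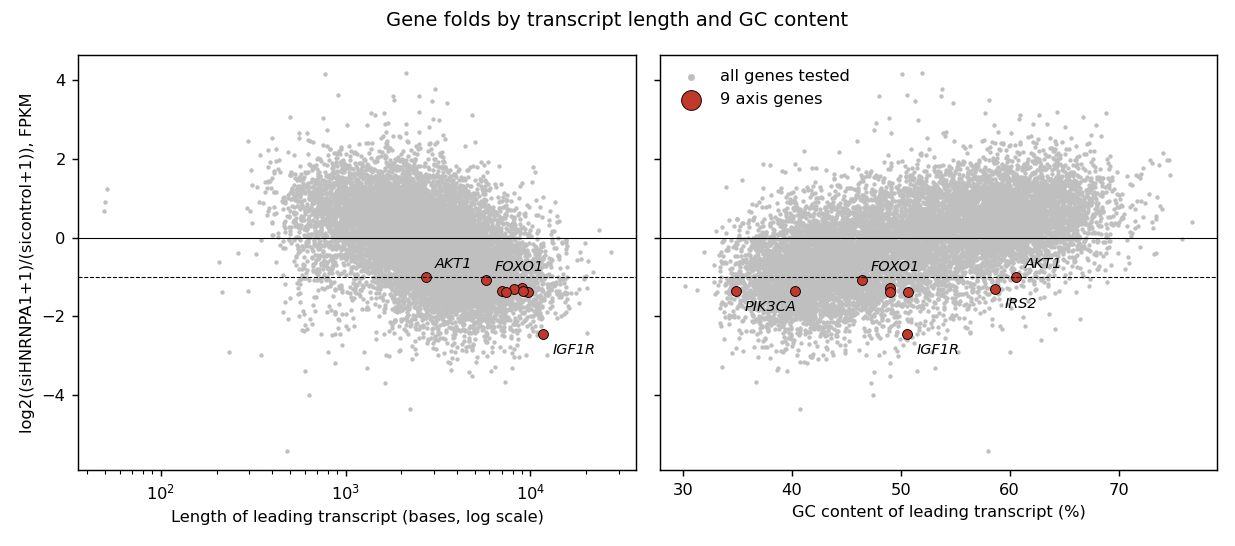
Log2 fold of FPKM (siHNRNPA1 over sicontrol, pseudocount 1 FPKM) against the length (left, log axis) and GC content (right) of each gene's leading transcript, for all genes tested (grey) and the 9 genes (red). The dashed line marks 2-fold lower. Most of the 9 lie within the grey cloud at their length, IGF1R at its lower edge, and AKT1 lies in the lower part of the cloud at its GC content.

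The start regions of the 9 genes were searched for the forkhead motif GTAAACA, which FOXO factors bind, on both strands (TGTTTAC on the other). RefSeq windows from 250 bases before to 50 after a start were available for all 9 genes, 16 windows in all on GRCh38.p14. The motif was in 1 of the 16, that of PIK3CA, and in 3.42% of the 35116 windows of all genes. The window of PIK3CA (chr3:179148107-179148406, plus strand) is shown because FOXO factors have been described to act on PI3K genes, and capitals mark the match, which begins at position -149 from the start. A match of letters is not evidence of binding.
PIK3CA: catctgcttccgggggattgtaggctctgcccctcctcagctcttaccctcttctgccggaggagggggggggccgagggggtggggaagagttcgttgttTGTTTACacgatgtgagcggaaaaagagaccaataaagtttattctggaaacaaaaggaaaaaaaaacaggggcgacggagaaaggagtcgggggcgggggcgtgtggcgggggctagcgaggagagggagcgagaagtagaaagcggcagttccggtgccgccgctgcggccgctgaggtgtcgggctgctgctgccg

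The other genes of the pathway were followed in 10 lists of 90 genes, of which 77 had a mean of at least 1 FPKM. Of these, 26 were at least 2-fold lower (33.8%, against 21.9% of all genes) and 5 at least 2-fold higher (6.49%, against 12.4%). Over the 66 with at least 1 FPKM in both libraries, 17 were lower (25.8%, against 18.5% of all such genes) and 5 higher (7.58%, against 12.6%). The 5 higher genes were IGFBP6, AKT1S1, MLST8, FOXO4 and SH2B1, an adaptor of receptor tyrosine kinases (26.0 FPKM with siHNRNPA1 and 10.3 FPKM with sicontrol), named after its values were seen.

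Of the ligand-side genes 4 of 5 had folds above 0, while the adaptors had a median below it. Of the 5 measured ligands and binding proteins 1 was at least 2-fold higher and none lower, against 12.4% and 21.9% of all genes. Their median log2 fold was 0.74, and -0.08 after subtraction of the nearest genes. IGFBP6, a binding protein with preference for IGF2, had 10.9 FPKM with siHNRNPA1 and 3.49 FPKM with sicontrol. IGFBP3 stood at a log2 fold of 0.78 and the growth factor IGF2 at -0.94. None of the 4 measured receptor-level genes passed 2-fold, against 21.9% of all genes lower and 12.4% higher. The receptor phosphatase PTPRF stood at -0.97 and the tyrosine phosphatases PTPN2 at -0.52 and PTPN1 at -0.49. After subtraction of the nearest genes 1 of the 4, PTPRF at -1.08, was at least 2-fold lower, against 8.38% of all genes. Of the 11 adaptors 5 were lower and 1 higher, against 21.9% and 12.4% of all genes, with a median of -0.92. Of the 5, GAB2, GAB1 and IRS4 were under 1 FPKM with siHNRNPA1 and passed the level minimum only through sicontrol. Of the 8 adaptors with 1 FPKM in both libraries 2 were lower, against 18.5% of all such genes. The docking protein GAB2 had 0.927 FPKM with siHNRNPA1 and 6.999 FPKM with sicontrol, its relative GAB1 stood at -1.72 and IRS4 at -1.70.

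Lower genes were found both among PI3K subunits and among the phosphatases that oppose the pathway. Of the 8 other PI3K subunits 4 were lower by 2-fold or more and none was higher by as much, against 21.9% and 12.4% of all genes. With 1 FPKM in both libraries 3 of 7 were lower, against 18.5% of all such genes. PIK3CB, the p110 beta catalytic subunit, had 0.388 FPKM with siHNRNPA1 and 7.56 FPKM with sicontrol (log2 fold -2.62), and the class II kinases PIK3C2A and PIK3C2B stood at -2.21 and -1.81. Of the 5 measured phosphatases 4 were lower and none higher, against 21.9% and 12.4% of all genes. The AKT phosphatases PHLPP2 and PHLPP1 stood at -1.56 and -1.39 and the lipid phosphatase INPP4A at -1.49. The AKT-related kinase SGK1 stood at -0.58 and PDPK1, the kinase that activates AKT, at -0.21.

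Downstream genes were on both sides. In the mTOR list of 13 measured genes 3 were lower and 2 higher, against 21.9% and 12.4% of all genes, with a median of -0.13. None of the 5 higher pathway genes was still at least 2-fold higher after subtraction of the nearest genes. AKT1S1, the mTORC1 component PRAS40, had 76.5 FPKM with siHNRNPA1 and 20.4 FPKM with sicontrol (log2 fold 1.86). MLST8, shared by both mTOR complexes, stood at 1.16 and RICTOR, of mTORC2, at -1.24. Of 6 other AKT substrates 2 were lower, against 21.9% of all genes. They were the Rab GTPase activators TBC1D4 (-2.38, under 1 FPKM with siHNRNPA1) and TBC1D1 (-1.78), while the pro-apoptotic BAD stood at 0.97. FOXO4 was higher, unlike FOXO1 and FOXO3, with 21.1 FPKM with siHNRNPA1 and 8.78 FPKM with sicontrol (log2 fold 1.18). Of the 14-3-3 proteins, which hold FOXO factors in the cytoplasm, YWHAE stood at -1.04 and YWHAH at -0.94.

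Of 13 measured FOXO target genes 6 were lower by 2-fold or more and none was higher by as much, against 21.9% and 12.4% of all genes. Their median was -0.98. Of the 10 with 1 FPKM in both libraries 3 were lower, against 18.5% of all such genes. The repressor BCL6 had 0.733 FPKM with siHNRNPA1 and 6.64 FPKM with sicontrol (log2 fold -2.14). The stress sensor SESN3 stood at -2.03 and the zinc finger factor KLF6 at -1.72. After subtraction of the nearest genes 3 of the 13 target genes were at least 2-fold lower, against 8.38% of all genes. Among 8 measured factors known to regulate INSR exon 11 splicing 5 passed 2-fold downward and none upward, against 21.9% and 12.4% of all genes. With 1 FPKM in both libraries this was 3 of 6, against 18.5% of all such genes, and SRSF1 was at the threshold (62.2 FPKM with siHNRNPA1 and 125.5 FPKM with sicontrol). CELF1 stood at -1.34, CELF2 at -1.26 and HNRNPH1 at -1.18. After the subtraction 1 of the 8 was lower and 1 higher, against 8.38% and 8.14% of all genes.

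**Figure D4:**
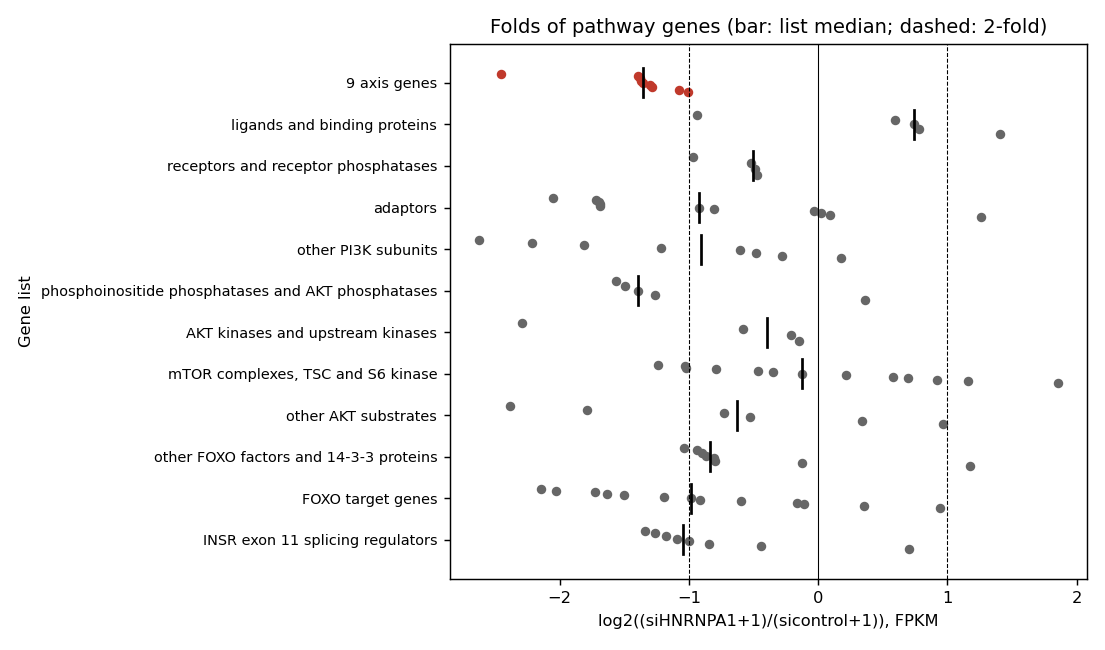
Log2 folds of FPKM (siHNRNPA1 over sicontrol, pseudocount 1 FPKM) of the 9 genes (red) and of each list of pathway genes with a mean of at least 1 FPKM (grey), with the list median as a bar and 2-fold as dashed lines. The medians run from -1.39 for the phosphatases to 0.74 for ligands and binding proteins.

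How each fold was computed moved its size but not its direction. The median over all genes was -0.28 with TPM in place of FPKM, against -0.13 as reported, and AKT1 stood at -1.17 and IGF1R at -2.70 with TPM. Folds of the 9 genes were below 0 under each of 9 other ways of computing them, with medians from -1.75 to -0.57. Changing the pseudocount or dropping the minimum mean level could not turn the direction of a fold. Each way used the same 2 libraries, so the shared direction is not a replicate check. After median ratio scaling of both libraries AKT1 stood at -0.94 and, in counts scaled to library size, at -0.99, on the other side of 2-fold. PIK3CA ranged from -2.67 with a pseudocount of 0.1 FPKM to -0.34 after subtraction of the nearest genes.

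**Figure D5:**
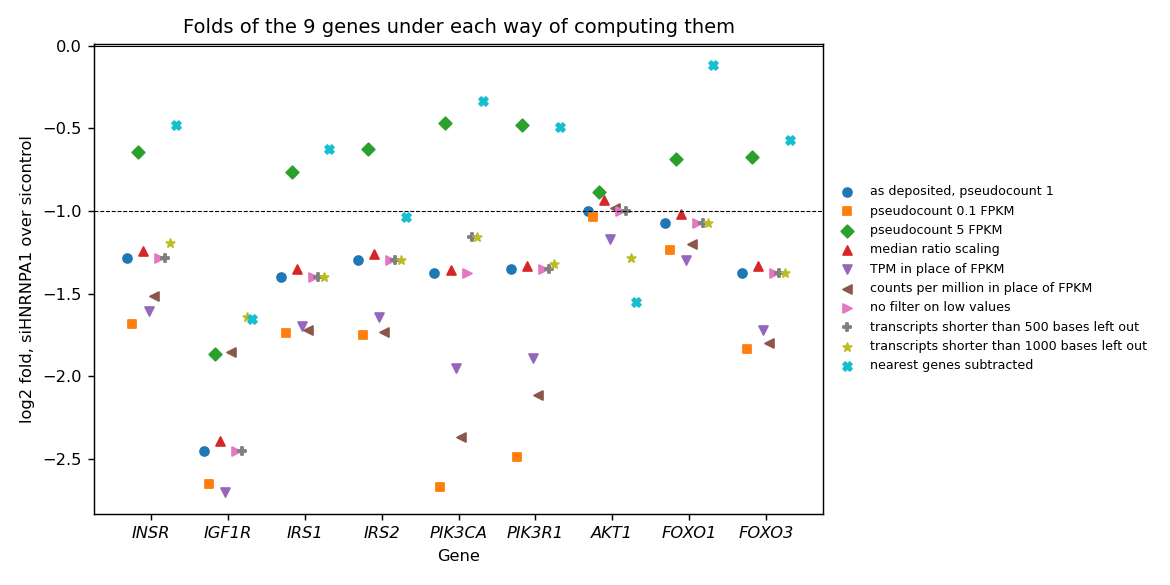
Log2 fold (siHNRNPA1 over sicontrol) of each of the 9 genes as reported and under 9 other ways of computing it. All points lie below 0, and those with a pseudocount of 5 FPKM or with the nearest genes subtracted lie closest to it for most genes, with IGF1R and AKT1 still low after the subtraction.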

How the data were processed

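Both libraries were messenger RNA libraries made from total RNA, per the labels' protocols. Per the file headers, the authors deposited for each transcript an estimated count, a TPM and an FPKM. The aligner, counter and annotation they used were not given in the sources used here. Mouse builds (GRCm38, mm10) appear in the submitters' processing notes, but identifiers are human, and all 39 transcripts described here have the same positions in GENCODE release 29 (GRCh38). The table held 6 further columns of values that match no labelled library and were not used.

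FPKM were summed per gene, and folds used a pseudocount of 1 FPKM over genes with a mean of at least 1 FPKM. At 1 library per condition no test was made. Intervals are exact 95% (Poisson for counts, Clopper-Pearson for shares and for ratios of counts), treat estimated counts as independent reads and cover counting error only. Exons, lengths, GC content and sequences came from GENCODE, with promoter windows from RefSeq. The leading transcript is the one with the highest mean FPKM. The 9 genes and the lists were chosen with earlier results of these data known. All 9 genes, HNRNPA1, transcripts with at least 10% of a gene's FPKM and the 3 largest absolute folds per list were to be named; others were named where a result turned on them. Some genes that this rule would name are not reported here. The computation was tested on simulated counts. Python 3.11.15, pandas 2.3.3 and scipy 1.17.1 were used.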

Additional observations from a re-analysis of the deposited data

How the results depend on the processing

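No paired analysis was possible because each condition had 1 library, and no replicate could be left out. Of the 9 genes, 9 were at least 2-fold lower as reported, 1 with a pseudocount of 5 FPKM (IGF1R) and 3 with the nearest genes subtracted. Of the pathway genes, 26 were lower and 5 higher as reported. With a pseudocount of 5 FPKM these were 12 and 3 (all genes 7.94% lower and 7.05% higher). With the nearest genes subtracted they were 16 and 0 (all genes 8.38% and 8.14%). With a pseudocount of 0.1 FPKM 8 of the 77 measured pathway genes were higher, against 15.3% of all genes. A larger pseudocount shrinks folds by construction, most for low genes. The subtraction can move a fold either way, and that of AKT1 was lower after it, at -1.55. Genes with a share difference of at least 20 points numbered 1 as reported and 2 when 1 FPKM in both libraries sufficed (IGF1R and AKT1 among 4 eligible genes, against 45.3% of all such genes). The difference in INSR exon 11 inclusion (siHNRNPA1 minus sicontrol) was -7.90 points of FPKM and -4.39 points of estimated counts. The AKT1 upstream share differed by -37.8 points of FPKM, -47.7 points of counts and -43.95 points without transcripts under 1000 bases, and all alternatives for this share, for the IGF1R acceptor and at 1000 bases were chosen after the data were seen. No result turned its direction, though a changed pseudocount or minimum level could not turn that of a gene's fold. Low counts limit PIK3CA and PIK3R1 most, with 85 and 84 in the siHNRNPA1 library.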
